A study of Mus musculus with 15 samples.

Results

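Immunoglobulin constant-region genes and the genes of plasma cells were followed in the pancreatic islets of female NOD mice, a strain in which leukocytes enter the islets before diabetes begins. The 10 genes were taken by name from a table of 48709 genes, and all 10 had a row in it. They were the heavy-chain genes Ighm, Ighd, Ighg1, Ighg2b, Ighg2c and Igha, the kappa light-chain gene Igkc, and Jchain, Mzb1 and Prdm1, genes of antibody secretion. The samples were islets of 3 mice at each age, at 4, 6, 8, 10 or 12 weeks, and all carried the NOD genotype. Age alone set the groups apart in the labels, and the series served to follow how insulitis builds up over these weeks. The study's methods state that the pancreas was digested with collagenase and that islets were purified on a density gradient and picked by hand. Each sample therefore holds endocrine cells together with any leukocytes or other tissue that stayed attached. All values are from bulk RNA, in which fewer cells of a type and less RNA per cell cannot be told apart.

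An antibody is built from paired heavy and light chains, and the constant region of the heavy chain sets its class. A naive B cell makes IgM and IgD from a shared primary transcript by alternative splicing. After activation, class-switch recombination joins the variable region to the constant region of an IgG, IgA or IgE gene farther along the locus and deletes the DNA between them. Plasma cells, the end stage of the lineage, secrete antibody in bulk. In them Prdm1 (Blimp-1) represses the B-cell programme, Mzb1 aids folding of the heavy chain in the endoplasmic reticulum, and the J chain links IgM and IgA units into polymers. Antibodies to islet antigens are a known feature of NOD mice and of type 1 diabetes.

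The heavy-chain genes lie on chromosome 12, minus strand, in the mm10 (GRCm38) build, in the order of the switch. Ighm was annotated at chr12:113418558-113422730, Ighd at chr12:113406604-113416324, Ighg1 at chr12:113325240-113330523, Ighg2b at chr12:113302965-113307933, Ighg2c at chr12:113285325-113288932 and Igha at chr12:113254830-113260236. Igkc was at chr6:70726435-70726966 (plus strand), Jchain at chr5:88519809-88527891 (minus strand) and Prdm1 at chr10:44437177-44528501 (minus strand). Where the J chain attaches can be read from the last coding exon. The lines below give the last 60 coding bases of the secreted transcripts of Ighm (chr12:113420870-113420929), Igha (chr12:113258771-113258830) and Ighg2b (chr12:113306392-113306451) from GENCODE M21, and capitals mark the cysteine codon, next to last, to which the J chain bonds.
Ighm: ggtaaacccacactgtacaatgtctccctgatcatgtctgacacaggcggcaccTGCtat
Igha: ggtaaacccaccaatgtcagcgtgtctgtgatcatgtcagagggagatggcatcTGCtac
Ighg2b: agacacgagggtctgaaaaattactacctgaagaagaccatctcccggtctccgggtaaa
Ighm and Igha shared a TGC codon at this place. Ighg2b carried GGT there, as did Ighg1 and Ighg2c, so J chain transcripts are read here beside those of IgM and IgA.

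The IgG genes resemble each other, which bears on how reads were assigned to them. The hinge, the short exon that joins the arms of the antibody to its stem, differs between them. It is shown here for Ighg1 (chr12:113329844-113329882), Ighg2b (chr12:113307261-113307326) and Ighg2c (chr12:113288263-113288325), all on the minus strand, with capitals for the in-frame cysteine codons.
Ighg1: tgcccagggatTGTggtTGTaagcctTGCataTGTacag
Ighg2b: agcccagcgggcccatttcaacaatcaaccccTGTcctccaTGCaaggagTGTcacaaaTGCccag
Ighg2c: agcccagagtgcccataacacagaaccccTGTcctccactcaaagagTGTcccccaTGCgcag
The hinge exons held 4, 4 and 3 in-frame cysteine codons and were 39, 66 and 63 bases long. Over whole transcripts, 0.393% of the 50-base windows of Ighg1, 4.15% of those of Ighg2b and 5.49% of those of Ighg2c also occurred in another heavy-chain constant gene. None of the 150-base windows did, and Ighm, Ighd and Igha shared none of either length. According to the study's methods, reads were as long as the longer windows. Values of single IgG genes carry this uncertainty. The mice were NOD, while the build is that of C57BL/6, and the part of strain differences in the counts was not tested.

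Library totals ran from 25407492 to 41616275 counts, and 16554 genes were tested. The 12 islet endocrine genes checked (Ins1, Ins2, Gcg and others) summed to between 148590 and 340507 CPM (counts scaled to library size with TMM factors) in every library. Markers of intestinal epithelium stood out in a pair of libraries. Alpi, the intestinal alkaline phosphatase, had 461 counts in replicate 2 at 6 weeks and 3623 in replicate 1 at 12 weeks, and it was at 0 in the other 13 libraries. The change of the 10 genes, the shares and the ratios were also computed without this pair of mice. Among young mice, replicate 1 at 4 weeks and replicate 3 at 6 weeks held more T-cell RNA than the rest, with 10 T-cell genes summing to 42.0 and 42.3 CPM against 2.22 to 12.3 CPM in the other 4.

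All 10 genes were higher in the islets of 10- and 12-week mice than in those of 4- and 6-week mice. The increases ran from 1.69-fold for Prdm1 to 49.9-fold for Ighm, 57.4-fold for Ighg2b and 158-fold for Ighd. Ighd, Ighg1 and Ighg2c passed the filter on low counts through the older mice, so a difference in them was favoured. Each of the 10 had an adjusted p under 0.05 in edgeR's quasi-likelihood test, where 30.1% of all genes tested were called higher, and 9 of 10 did not overlap between the 6 older and 6 younger mice, against 19.7% of all genes. Their median log2 fold change was 5.73, beside -0.05 over all genes. With library totals in place of TMM, the median of all genes moved by 0.23 on the log2 scale, and all 10 were still called higher.

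Marker genes of T cells, myeloid cells and B cells were higher over the same interval. All 10 T-cell, all 10 myeloid and all 16 B-cell genes were called higher, beside 30.1% of all genes. Their medians were 4.75, 2.69 and 6.30 on the log2 scale. T-cell genes summed to 2.22 to 42.3 CPM at 4 and 6 weeks and to 233 to 549 CPM at 10 and 12 weeks, and the corresponding ranges were 16.02 to 53.9 and 347 to 890 CPM for B-cell genes and 92.6 to 299 and 761 to 1624 CPM for myeloid genes. All 12 endocrine genes were called lower (median -0.79), beside 5579 of all 16554 genes. Their sums fell from a range of 305734 to 340507 CPM to a range of 148590 to 207449 CPM. The part of cell composition in the change of each immunoglobulin gene was not tested.

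**Figure D1:**
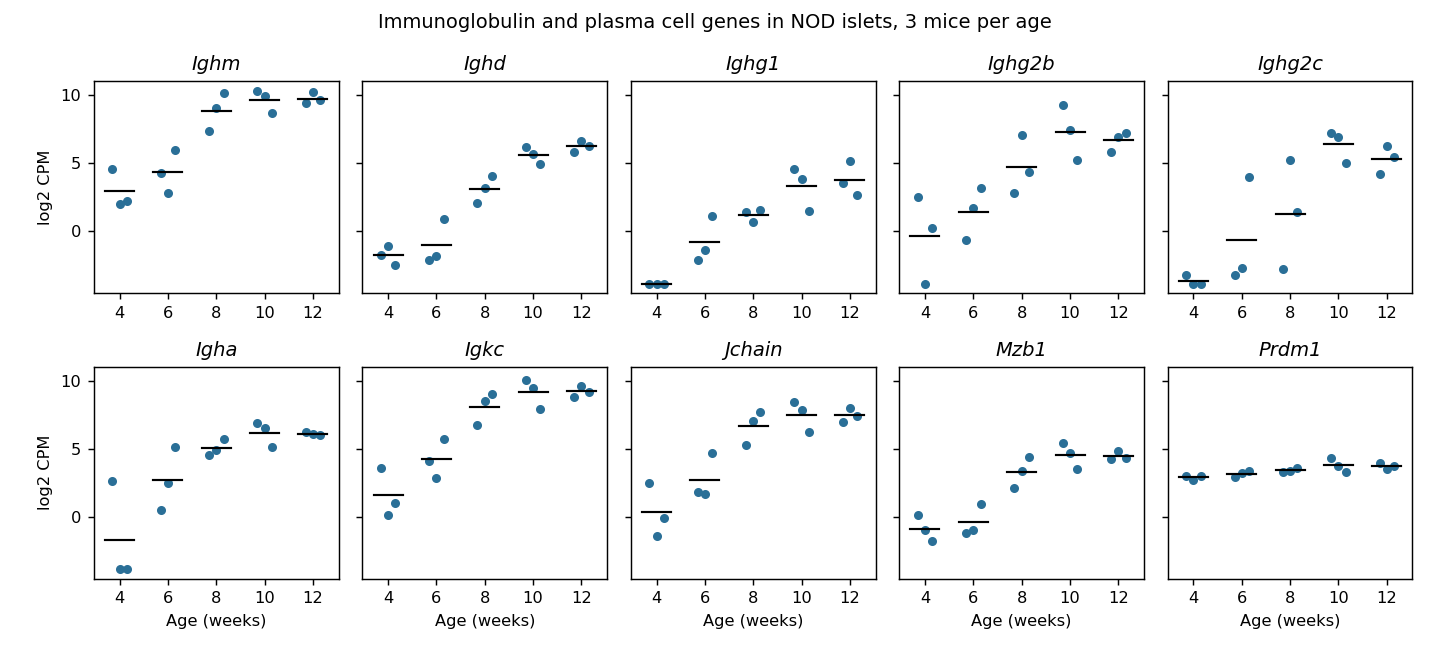
Log2 CPM (prior count of 2) of the 10 genes by age in weeks, with a point for each mouse and a bar at the mean of 3 mice. Ighm, Igkc, Jchain and Mzb1 climb most steeply between 6 and 8 weeks, while Prdm1 stays between 6.54 and 20.1 CPM throughout.

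Ighm encodes the mu heavy chain of IgM, the class that a B cell makes first. It had 632, 93 and 127 counts in the 3 mice at 4 weeks and 492, 258 and 1602 at 6 weeks. At 8 weeks it had 4497, 15036 and 32394 counts, at 10 weeks 35825, 39792 and 12228, and at 12 weeks 20954, 35379 and 25073. Every mouse of 8 weeks or more stood above every younger mouse, and the older groups overlapped each other. Mean levels were 10.7 ± 11.2 CPM (SD, n = 3) at 4 weeks, 29.8 ± 29.5 at 6, 619 ± 501 at 8, 900 ± 453 at 10 and 883 ± 265 at 12. The log2 fold change of 12 against 4 weeks was 6.36 (SE 1.08, edgeR adjusted p = 0.000623).

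Ighd encodes the delta heavy chain of IgD, which marks mature B cells that have not switched. Its counts were 6, 9 and 3 at 4 weeks and 4, 8 and 45 at 6 weeks. They were 114, 245 and 455 at 8 weeks, 1964, 2050 and 905 at 10 weeks, and 1714, 3029 and 2483 at 12 weeks. The groups at 6, 8 and 10 weeks did not overlap, and those at 10 and 12 weeks did. The mean of Ighd was 9.71 ± 6.10 CPM at 8 weeks and 50.9 ± 20.5 at 10 (n = 3 each), where the Ighm groups overlapped. Both genes had their highest estimate between neighbouring ages at 8 against 6 weeks (log2 fold change 4.38 for Ighm and 3.85 for Ighd). A difference in timing between them was not tested. At 12 against 4 weeks the log2 fold change of Ighd was 8.37 (SE 0.852, edgeR adjusted p = 0.000128).

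Ighg2b had the highest counts of these 3 IgG genes in every mouse of 10 and 12 weeks, but these genes differ in length. Per length of transcript, Ighg2c was above Ighg2b in replicates 2 and 3 at 10 weeks (90.7 against 63.9 and 23.8 against 13.5 RPKM). The same held for replicate 2 at 12 weeks (56.1 against 43.7 RPKM). Counts of Ighg2b follow. It had 149, 0 and 30 counts at 4 weeks, 14, 120 and 223 at 6 weeks, and 188, 3692 and 580 at 8 weeks. At 10 weeks the mice had 17353, 6986 and 1131 counts, and at 12 weeks 1762, 3656 and 4794. The 3 mice at 10 weeks spanned a wider range than those at 12 weeks, with replicate 1 far above the others. The log2 fold change of 10 and 12 against 4 and 6 weeks was 5.84 (SE 1.04, edgeR adjusted p = 0.000352).

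Ighg2c, the counterpart of IgG2a in some inbred strains, was nearly absent in most young mice. It had 1, 0 and 0 counts at 4 weeks, 1, 3 and 401 at 6 weeks, and 2, 1032 and 72 at 8 weeks. At 10 weeks it had 4218, 4905 and 991 counts and at 12 weeks 559, 2322 and 1418. In the 6- and 8-week groups a single mouse held most of the counts. The summed counts were 4299 at 12 weeks and 1 at 4 weeks, a ratio of 3610 after scaling for depth with an exact counting interval of 648 to 142636. This interval covers counting error only.

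Ighg1 had the lowest counts of the 3 IgG genes from 10 weeks on. None was counted in the 3 mice at 4 weeks. The counts were 4, 12 and 54 at 6 weeks, 69, 43 and 79 at 8 weeks, 660, 556 and 80 at 10 weeks, and 350, 1064 and 200 at 12 weeks. Against a floor of 3 counts in each 4-week library, the mean of Ighg1 at 12 weeks was at least 152-fold higher. The 12-week mice ran from 6.28 to 35.6 CPM, and this bound does not cover the spread between mice.

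Igha encodes the alpha heavy chain of IgA, the class of mucosal surfaces. It had 161, 0 and 0 counts at 4 weeks and 33, 209 and 887 at 6 weeks. At 8 weeks the mice had 629, 825 and 1467 counts, at 10 weeks 3312, 3600 and 1061, and at 12 weeks 2296, 2043 and 2055. The 12-week mice lay close together, at 69.1 ± 4.96 CPM (SD, n = 3). Igha rose 14.2-fold from 4 and 6 to 10 and 12 weeks (log2 fold change 3.82, SE 0.838, edgeR adjusted p = 0.00154), and the value was 3.60 on the log2 scale (adjusted p = 0.0103) without the pair of libraries with intestinal RNA. The highest Igha count among young mice, 887 in replicate 3 at 6 weeks, came from a library with 0 counts of Alpi and of Muc2, the main intestinal mucin.

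Igkc encodes the constant region of the kappa light chain, which most mouse antibodies carry. It had 323, 24 and 53 counts at 4 weeks, 430, 273 and 1344 at 6 weeks, and 3016, 10547 and 14362 at 8 weeks. At 10 weeks the mice had 29761, 28101 and 7491 counts and at 12 weeks 14240, 23703 and 18624. Every mouse of 8 weeks or more stood above every younger mouse. Igkc rose 56.7-fold from 4 and 6 to 10 and 12 weeks (log2 fold change 5.82, SE 0.743, edgeR adjusted p = 4.45e-05). Per length of transcript it was the highest of the 10 genes in the older mice, with 1186 ± 524 RPKM at 10 and 12 weeks (SD, n = 6) beside 462 ± 171 for Ighm.

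Jchain encodes the linker of polymeric IgM and IgA. Its counts were 145, 7 and 24 at 4 weeks, 88, 119 and 636 at 6 weeks, 1081, 3632 and 6000 at 8 weeks, 9769, 9199 and 2260 at 10 weeks, and 3883, 7803 and 5298 at 12 weeks. The groups at 6 and 8 weeks did not overlap, and those from 8 weeks on did. Mzb1, a chaperone of the endoplasmic reticulum in plasma cells and marginal zone B cells, had 27, 10 and 6 counts at 4 weeks and 9, 17 and 47 at 6 weeks. It had 119, 288 and 589 counts at 8 weeks, 1187, 1046 and 332 at 10 weeks, and 572, 851 and 647 at 12 weeks. From 4 and 6 to 10 and 12 weeks Jchain rose by 5.38 (SE 0.768) and Mzb1 by 5.14 (SE 0.563) on the log2 scale, with edgeR adjusted p = 8.33e-05 and 2.41e-05.

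Prdm1 followed another course. This repressor, which plasma cells share with some T cells and other tissues, was measured at 7.45 ± 0.791 CPM at 4 weeks and at 8.93 ± 1.43, 10.6 ± 1.14, 14.4 ± 5.33 and 13.3 ± 1.92 CPM at 6, 8, 10 and 12 weeks (SD, n = 3 each). The older and younger mice overlapped, since replicate 3 at 10 weeks had 9.63 CPM and replicate 3 at 6 weeks had 10.1 CPM. Its log2 fold change of 10 and 12 against 4 and 6 weeks was 0.76 (SE 0.159, edgeR adjusted p = 0.00114). Prdm1 was above the mean of 16 B-cell genes on the log2 scale in each young mouse and below it in each older one.

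The remaining constant genes completed the picture of the loci. Ighg3, the gene of IgG3, was at 0 in all 3 mice at 6 weeks and had 6, 941 and 21 counts at 8 weeks, 2137, 741 and 322 at 10 weeks, and 1779, 66 and 1480 at 12 weeks. Mice of the same age differed widely in it. Ighe, the gene of IgE, was low throughout, with 1, 8 and 1 counts at 10 weeks and 7, 4 and 3 at 12 weeks. The lambda light-chain genes Iglc1, Iglc2 and Iglc3 were called higher at 10 and 12 weeks, with log2 fold changes of 3.93, 5.92 and 5.44, and Iglc4 was at 0 in every library.

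The neighbouring ages were then compared in turn, to place the increase in time. From 4 to 6 weeks all 10 estimates were positive. None was called by edgeR's quasi-likelihood test, with 4 at an unadjusted p under 0.05, beside 0.00604% of all genes called higher and 3.79% at the unadjusted threshold. The edgeR exact test called 0 and DESeq2 called 2, Ighg1 and Ighg2c, both at 0 or 1 count at 4 weeks. Over the whole table these tests called 51 of 15270 and 63 of 15655 genes higher.

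From 6 to 8 weeks the estimates of Ighm, Ighd, Igkc, Jchain and Mzb1 were large. Ighm differed 20.8-fold (log2 4.38, SE 0.981), Ighd 14.4-fold (3.85, SE 0.717), Mzb1 13.8-fold (3.78, SE 0.755), Igkc 13.0-fold (3.70, SE 0.945) and Jchain 12.2-fold (3.61, SE 0.982). These 5 did not overlap between the ages, beside 7.62% of all genes, and Ighd among them passed the filter through the older mice. None of the 10 was called in edgeR's quasi-likelihood test, which called 0.0% of all genes at this step, and 6 of 10 had an unadjusted p under 0.05, beside 10.9% of all genes called higher at that threshold. The same 5 genes were called by the edgeR exact test, by DESeq2, and by the quasi-likelihood test without replicate 1 at 8 weeks, which called 133 of 15520, 448 of 16514 and 724 of 16870 genes higher over the whole table. Ighg2b had an estimate of 3.68 (SE 1.34, unadjusted p = 0.0166 in the quasi-likelihood test). Its groups overlapped, and most of its 8-week counts were the 3692 of replicate 2. Ighg1, Ighg2c, Igha and Prdm1 had estimates of 0.25 to 1.44 with unadjusted p of 0.187 to 0.379.

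From 8 to 10 weeks Ighd was the only gene of the 10 called higher. It rose 5.23-fold (log2 2.39, SE 0.566, edgeR adjusted p = 0.0271), beside 8.4% of all genes called higher at this step, and was the only gene of the 10 whose groups did not overlap, beside 17.2% of all genes. Ighm had an estimate of 0.54 (SE 0.852), Jchain 0.78 (SE 0.872) and Igkc 1.02 (SE 0.852), none of which passed the test. Ighg1, Ighg2b and Ighg2c had estimates of 2.40 to 2.97 with SEs of 0.945 to 1.47, and none passed. Of the 16 B-cell genes 11 were called higher over the same weeks (median 1.98), among them Pax5, Cr2 and Blk, and 0 of 10 T-cell genes were called, with 1 at an unadjusted p under 0.05. The T-cell estimates were nearly as large (median 1.74, range 1.45 to 2.15), and the difference between the lists was not tested. The call of Ighd was lost when the 8- and 10-week mice were fitted alone (adjusted p = 0.171) and when replicate 1 or 2 of either age was left out (adjusted p = 0.0748 to 0.12). Over all genes the step had 1391 called higher and 1385 lower, and 1826 and 488 with library totals in place of TMM. No gene of the table was called, the B-cell genes included, when the 8- and 10-week mice were fitted alone or when replicate 1 or 2 of either age was left out, and 2704 were called higher and 2908 lower without replicate 3 at 10 weeks.

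From 10 to 12 weeks the 10 estimates ran from -1.35 for Ighg2b to 0.62 for Ighd, with 8 of 10 below 0. None was called by edgeR's quasi-likelihood test, edgeR's exact test or DESeq2, and none had an unadjusted p under 0.05. No gene was called at this step in the whole table, 0.0%, and 3.52% were higher at the unadjusted threshold. Between the extremes, at 12 against 4 weeks, all 10 were called higher and all 10 did not overlap, beside 26.3% and 30.3% of all genes. This was favoured in Ighd, Ighg1 and Ighg2c, which passed the filter through the older mice. Ighg1 and Ighg2c were at 0 or 1 count in each 4-week mouse.

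**Figure D2:**
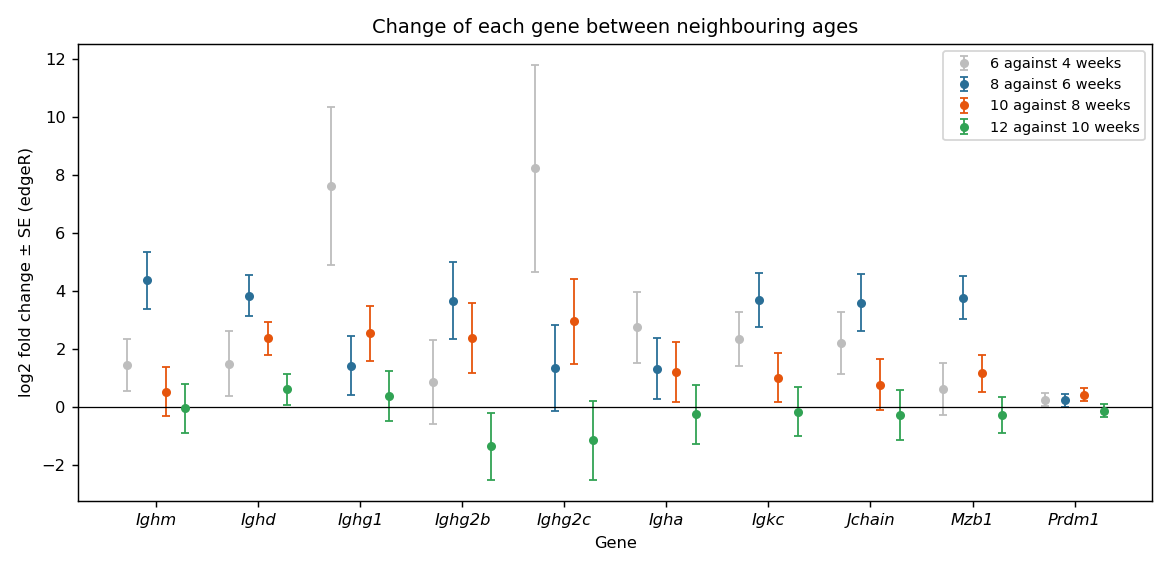
Log2 fold change of each of the 10 genes between neighbouring ages from the edgeR fit, with bars of 1 SE and a line at 0. The step from 6 to 8 weeks is the highest estimate for Ighm, Ighd, Ighg2b, Igkc, Jchain and Mzb1, and the values of Ighg1 and Ighg2c at 6 against 4 weeks (7.63 and 8.24) rest on groups at or near 0 counts.

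The class of heavy chain present was expressed for each mouse as a share of the summed RPKM of the 6 heavy-chain genes, since genes of different length are compared. Ighm made up the largest share in all 15 mice, from 50.5% in replicate 2 at 6 weeks to 94.0% in replicate 3 at 8 weeks. At 4 weeks the Ighm shares were 73.6%, 91.2% and 84.05%, at 6 weeks 92.2%, 50.5% and 52.7%, and at 8 weeks 85.8%, 75.3% and 94.0%. At 10 weeks they were 60.9%, 70.2% and 75.8% and at 12 weeks 78.9%, 76.1% and 72.6%. The younger mice scattered more widely than the older ones, with SDs of 18.6 at 4 and 6 weeks and 6.38 at 10 and 12 weeks (n = 6 each), and their means of 74.1% and 72.4% differed by less than that spread (two-sided exact permutation p = 0.844).

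None of the 6 shares differed between the 6 older and the 6 younger mice after adjustment over the 6 shares. The share of Ighd was 5.41% ± 1.60 in older and 2.53% ± 3.09 in younger mice (SD, n = 6 each, exact permutation p = 0.0779, adjusted p = 0.433). Ighg2c took 7.86% ± 3.30 and 3.34% ± 7.56 (exact p = 0.214, adjusted p = 0.433), and Igha 4.42% ± 0.987 and 11.2% ± 11.9 (exact p = 0.216, adjusted p = 0.433). Single young mice decided these values. The Igha difference of -6.77 points ran from -9.01 to -3.23 with a mouse left out (-3.23 without replicate 2 at 6 weeks), and without the libraries with intestinal RNA it was -3.57 and that of Ighm -7.65 (exact permutation, adjusted p = 0.444 for both). Without replicate 2 at 4 weeks, whose 102 heavy-chain counts held 9 of Ighd, the difference in the Ighd share was 4.13 percentage points (exact permutation, adjusted p = 0.026). Without replicate 3 at 6 weeks the difference in the Ighg2c share was 7.61 points (exact permutation, adjusted p = 0.026).

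The switched genes among these 6 (Ighg1, Ighg2b, Ighg2c and Igha) together took 22.2% ± 7.68 of the RPKM in older mice. In younger ones they took 23.4% ± 20.1 (SD, n = 6 each). In older mice the range was 14.7% in replicate 1 at 12 weeks to 35.8% in replicate 1 at 10 weeks. Ighg2b and Ighg2c made up most of this switched share in each of these 6 mice, and Ighg1 took between 0.361% and 1.67% of the total. Ighg3, also a switched gene, was outside these shares. In replicate 1 at 12 weeks it had 52.0 RPKM, above Ighg2b (20.8) and Ighg2c (13.3). In the other older mice it had 1.95 to 70.1 RPKM, below Ighg2b in each. Igha took 3.11% to 6.11% in older mice. In young mice it ranged from 0% to 28.9%, and the highest share belonged to replicate 2 at 6 weeks, a library with intestinal RNA. Replicate 3 at 6 weeks, with no such RNA, had 20.6%.

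Depth limits the shares in the youngest mice. The 6 genes together had 949, 102 and 160 counts in the 3 mice at 4 weeks, against 16396 to 63332 at 10 and 12 weeks. A count of 0 for Igha in replicates 2 and 3 at 4 weeks allows a share of the counts of up to 2.94% and 1.88%. The 9 Ighd counts of replicate 2 correspond to 8.82% of its counts with a 95% Wilson interval of 4.71% to 15.9%. These limits cover counting error only.

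**Figure D3:**
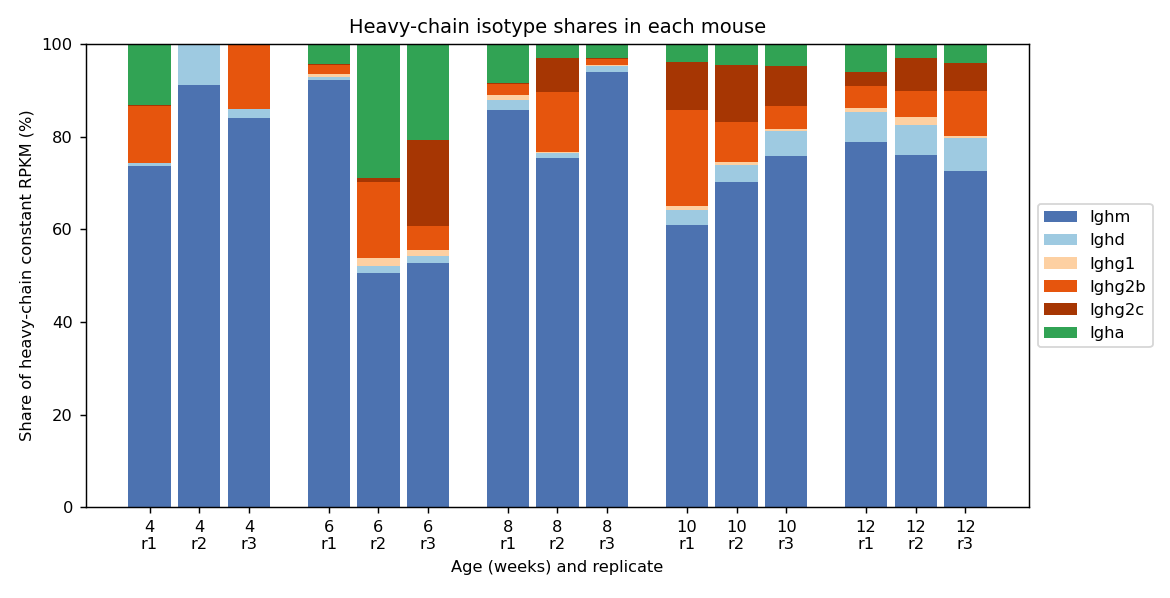
Share of each heavy-chain gene in the summed RPKM of the 6 genes (percent), with a bar for each of the 15 mice in order of age. Ighm is the largest part of every bar, and the bars of the 10- and 12-week mice resemble each other more than those of the 4- and 6-week mice.

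Genes of antibody secretion were next set against B-cell genes in the same library, to ask whether they rose in proportion. Each ratio is a difference of log2 CPM within a library, and the B-cell level is the mean of 16 genes (Ms4a1, Pax5, Cr2, Blk and others). From 4 and 6 to 10 and 12 weeks the level of Jchain relative to them was 2.19 ± 1.35 and 2.32 ± 0.511, a difference of 0.12 that was smaller than the spread between mice (SD, n = 6 each, exact permutation p = 0.890). Mzb1 differed by -0.69 against the B-cell genes (exact permutation p = 0.0216, adjusted p = 0.0649 over 6 ratios). Prdm1 against the B-cell genes differed by -5.12, from 3.71 ± 0.95 to -1.41 ± 0.463, with no overlap between the groups. The exact permutation p of 0.00216 is the smallest that 6 against 6 mice can give (adjusted p = 0.013). Prdm1 itself rose by 0.76, so this difference came from its denominator, whose genes rose by a median of 6.30. At 4 weeks Prdm1 had 153 to 218 counts where Pax5 had 0 to 8. The B-cell list was chosen with earlier results known, so this p-value cannot decide whether Prdm1 rose in proportion.

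Other ratios differed by less than the spread between mice. Jchain against Ighm was -2.13 ± 0.850 in younger and -2.21 ± 0.211 in older mice, a difference of -0.08 (n = 6 each, exact permutation p = 0.879). Jchain against Igkc differed by -0.32 (adjusted p = 0.255) and kappa against the summed lambda genes by 0.24 (adjusted p = 0.890), both by exact permutation. Without replicate 1 at 6 weeks these came to -0.49 (adjusted p = 0.013) and 0.64 (adjusted p = 0.0346). None of the 6 ratios could reach p under 0.05 at 12 against 10 weeks, where 3 against 3 mice cannot go below 0.1.

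Relative to the B-cell genes, Ighm, Jchain and Mzb1 had their highest group mean at 8 weeks. Ighm minus the B-cell genes was 5.22, 6.28 and 6.39 in the 3 mice at 8 weeks, against 4.01 to 5.06 in the 6 mice at 10 and 12 weeks. For Jchain the 8-week values were 3.16, 4.23 and 3.96, against 1.77 to 2.95 later. Ighm minus Ighd was 5.28, 5.93 and 6.15 at 8 weeks and 3.33 to 4.28 later. The mice at 8 weeks lay above all later mice in each, but not above all younger mice. Ighm minus Ighd was 6.34 in replicate 1 at 4 weeks and 6.43 in replicate 1 at 6 weeks. Against the B-cell genes, Ighm was at 5.27 in replicate 1 at 6 weeks and Jchain at 3.52 in replicate 3 at 6 weeks. For Mzb1, replicate 1 at 4 weeks (0.404) lay above replicate 1 at 8 weeks (-0.00136). The comparison with later mice was chosen after the values were seen. The differences of later mice from 8-week mice were -1.43 for Ighm, -1.46 for Jchain and -1.07 for Mzb1 against the B-cell genes, and -2.0 for Ighm against Ighd. Ighd against the B-cell genes differed the other way, by 0.57. In 8 of 9 such ratios the groups did not overlap, and Jchain against Ighm was the exception, with a difference of -0.03. No test is given, since the values prompted the comparison.

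The B-cell genes themselves also differed between these ages. Their mean was 2.14, 2.79 and 3.79 log2 CPM at 8 weeks and 4.24 to 5.62 at 10 and 12 weeks. Kappa against lambda light chain was also higher at 8 weeks, with 4.78, 5.29 and 4.53 against 3.73 to 4.04 later, a difference of -1.01. Of the ratios, 5 share the B-cell genes as denominator, and Prdm1, whose own group means were not lower at 10 and 12 weeks, also differed by -1.92 against them. With a list of 4 B-cell genes in place of 16, the groups overlapped for Jchain, Mzb1, Ighm and Ighd.

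**Figure D4:**
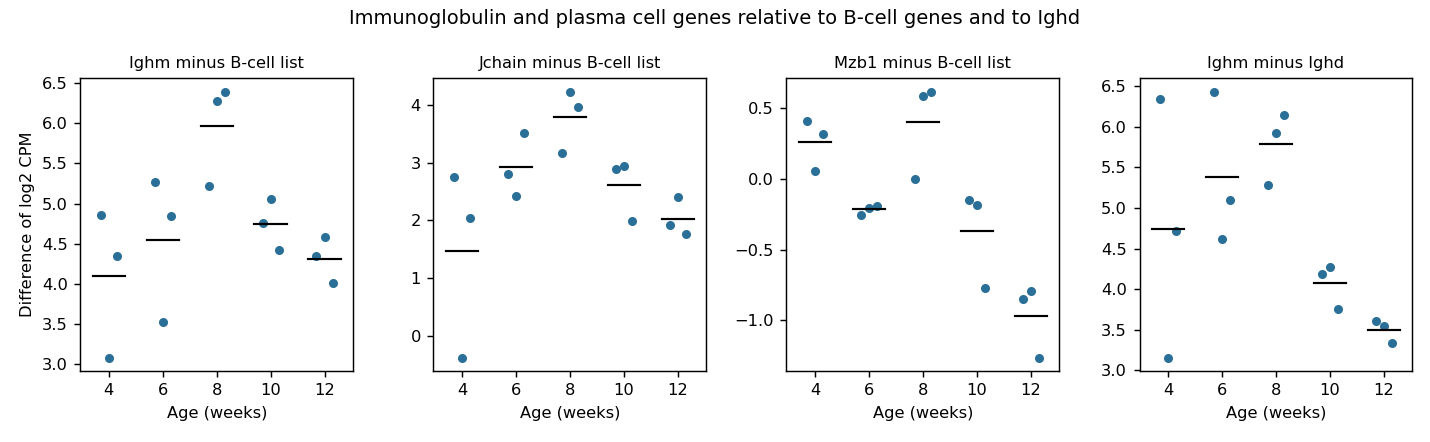
Difference of log2 CPM within each mouse by age in weeks, for Ighm, Jchain and Mzb1 minus the mean of 16 B-cell genes and for Ighm minus Ighd, with a point per mouse and a bar at the mean of 3. The 8-week points are the highest group mean in all 4 panels, and the points at 12 weeks lie below those at 8 weeks in each.

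Replicate 1 at 8 weeks had more Ighm than any younger mouse at a low level of T-cell genes. It had 4497 counts of Ighm and 149 of Pax5, a transcription factor of B cells, but 20 of Cd3e, a subunit of the T-cell receptor complex. Replicates 2 and 3 at 8 weeks had 406 and 556 counts of Cd3e. The mean of the 10 T-cell genes was -0.23 log2 CPM in replicate 1 and 3.74 and 4.24 in the other 8-week mice. Replicates 1 at 4 weeks and 3 at 6 weeks had more T-cell RNA than this mouse, at 1.89 and 1.91 log2 CPM, and had 632 and 1602 counts of Ighm. Replicate 1 at 6 weeks had the lowest T-cell level, -2.26 log2 CPM, with 492 counts of Ighm and 2 of Cd3e. Each mouse was sampled at a single age, so an order in time was not tested.

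**Figure D5:**
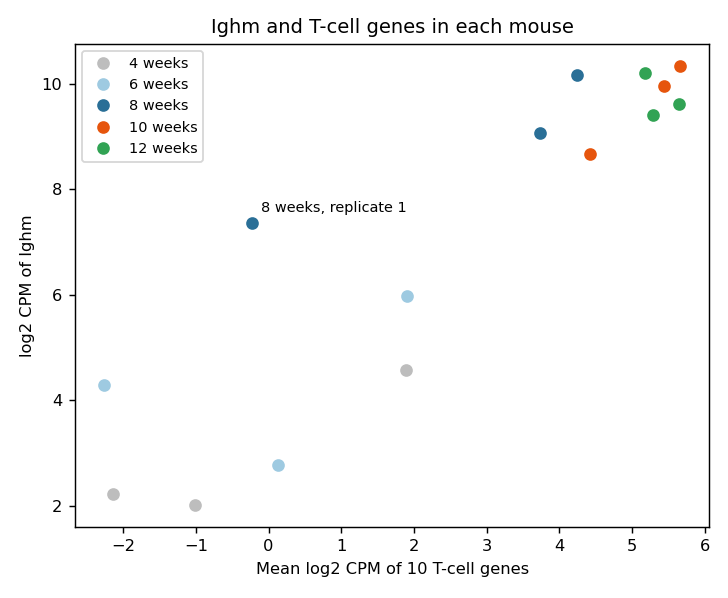
Log2 CPM of Ighm (y axis) against the mean log2 CPM of 10 T-cell genes (x axis), with a point for each of 15 mice coloured by age. Replicate 1 at 8 weeks lies above every 4- and 6-week mouse and below the other 8-week mice in Ighm, with a T-cell level within the range of mice at 4 and 6 weeks.

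Other genes of the plasma cell programme did not move as a block. Of 18 listed, 16 were tested, and 8 were called higher and 8 lower at 10 and 12 weeks (median log2 fold change 0.17), beside 4989 higher and 5579 lower of all 16554 genes. The genes with the greatest increase are also expressed by other lymphocytes. They were Pou2af1 (6.38, SE 0.644), a coactivator of immunoglobulin transcription, Irf4 (4.72, SE 0.655), a regulator of plasma cell differentiation, Slamf7 (4.08, SE 0.795), Tnfrsf13b (4.04, SE 0.451), which encodes the APRIL and BAFF receptor TACI, and Cd38 (2.26, SE 0.214). The 8 called lower, by -0.94 to -0.11, were genes of the secretory pathway and others that islet cells also express. Xbp1, the regulator of the secretory expansion, had 6261 to 8308 counts at 4 weeks, where Pax5 had 0 to 8, and 6098 to 9668 at 10 and 12 weeks. With library totals, 4 of these genes were called lower and Txndc5 was called higher (0.12, edgeR adjusted p = 0.0399). Tnfrsf17, the plasma cell receptor BCMA, was left untested by the filter and had 0 to 16 counts.

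Genes of class switching were then examined. Of 18 listed, 16 were tested. At 10 and 12 weeks 9 were called higher and 3 lower, beside 4989 higher and 5579 lower of all 16554 genes. With library totals 12 were called higher and 1 lower, beside 7661 and 2390 of all 16554 genes. Il21 (log2 fold change 5.50, SE 0.792) and Cd40lg (5.12, SE 0.815), signals that T cells give to B cells, rose most, followed by Il21r (4.77), which encodes the receptor of IL-21, the transcription factor gene Batf (3.89) and Ifng (3.71). Il4 and Il5, which direct switching to IgG1, IgE or IgA, had at most 3 counts in any library and were not tested.

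Receptors for immunoglobulin were higher as well, with 10 of 11 listed genes tested and all 10 called, beside 30.1% of all genes called higher. Fcmr, the IgM receptor of B cells, rose by 6.81 (SE 0.398) on the log2 scale. Fcgr4, Fcgr2b and Fcer1g, receptors or signalling chains for IgG and IgE on myeloid and B cells, rose by 3.02, 2.79 and 2.68, and Fcamr, a receptor for IgA and IgM, by 2.55. Pigr, which carries IgA and IgM across epithelium, was also called higher (2.38, SE 0.600), and its highest count, 7467, was in replicate 1 at 12 weeks, a library with intestinal RNA, beside 686 to 2014 in the other older mice.

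Plasma cell survival and homing genes were mostly higher, with 11 of 13 called higher and 1 lower, beside 4989 higher and 5579 lower of all 16554 genes. The greatest increases were in Tnfrsf13c, the BAFF receptor of B cells (6.50, SE 0.602), Cd28 (4.97), the gut-homing genes Itgb7 (4.54) and Ccr9 (4.35), and Cxcr3 (3.52). T cells share several of these genes. Glycam1, a ligand made by high endothelial venules, had 0 to 33 counts in young mice and 659 to 8094 at 10 and 12 weeks. Of such lymph node genes, 9 of 9 tested were called higher, beside 30.1% of all genes. All these values moved with the lymphocyte lists above, and their part in the change of the antibody genes was not tested.

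The genes most like Jchain and Ighm over the 15 mice were found by Pearson's r of log2 CPM, leaving out all immunoglobulin segments. For Ighm they included Pou2af1 (r = 0.983), Slpi (0.971), Klri2 (0.970) and C3 (0.968). For Jchain they were Slpi (r = 0.967), Mgl2 (0.965), Pou2af1 (0.964), Il33 (0.962) and Klri2 (0.961). The 15 points share the change with age and fall into young and old groups, so the values describe a common course over these libraries.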

How the data were processed

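RNA was sequenced from islets of 15 NOD females by paired reads from polyadenylated libraries. According to the study's methods, the authors trimmed, aligned and counted reads in CLC Genomics Workbench with default settings, and the submitters' processing notes name the mm10 build. The annotation release is not given in the sources used here. The deposited counts are whole reads per gene with no normalization, and the deposited RPKM values are the authors' counts scaled to exon length and library size. The length behind RPKM includes the membrane exons, so that secreted and membrane forms of a heavy chain are counted together. A further 30 per-sample columns (TPM and CPM) were not used.

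Counts were tested with edgeR 4.0.16 in R 4.3.3 (filterByExpr, TMM, glmQLFit with a mean for each age, glmQLFTest), with Benjamini-Hochberg adjustment over the 16554 genes tested and calls at an adjusted p under 0.05. All 15 libraries entered each fit. Shares were tested on RPKM and ratios on log2 CPM (prior count of 2) by two-sided exact permutation tests over mice. The edgeR pipeline was tested on simulated data. Library totals of 25407492 to 41616275 counts put 3 counts at 0.0721 to 0.118 CPM.

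The 10 genes and all gene lists were chosen with earlier results of these data known. Genes named outside the 10 were the other constant genes, up to 5 per list with the greatest absolute change among those called at 10 and 12 against 4 and 6 weeks, genes of other cell types that state a level beside a result, and the 5 genes most correlated with Jchain and with Ighm. A few genes covered by these choices are not reported here. Alternatives were other size factors, library totals, no filter, fitting each pair of ages by itself, DESeq2 1.42.0, edgeR's exact test, each mouse left out in turn, a block for the replicate number, shares of counts or with Ighg3 and Ighe, a prior count of 0.5 and a B-cell list of 4 genes. Shares by the shorter transcript, results without the libraries with intestinal RNA, and the comparison with 8 weeks were added after seeing the data. Sequences and exon positions are from GENCODE M21 on GRCm38, in which 9 of the 10 genes have the same position as in the deposited table.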

Additional observations from a re-analysis of the deposited data

Results flagged for a closer look

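In groups of 6 mice, a value was picked out where its gap to the nearest other mouse divided by the group's range exceeded Dixon's 95% critical value. Of 32 groups examined 4 held such a value. The shares of a mouse depend on each other, and several levels lie at the floor. The groups are therefore not independent, and no rate expected by chance is set beside this number. Ighg2c at 4 and 6 weeks had a log2 CPM of 3.99 in replicate 3 at 6 weeks, where the next mouse had -2.77. The same mouse had an Ighg2c share of 18.8% of heavy-chain RPKM, where the next had 0.835%, and this share rests on the same counts. The Ighd share of 8.76% in replicate 2 at 4 weeks stood above a next value of 1.97% and rests on 9 counts of 102. At 10 and 12 weeks the Ighg2b share of 20.8% in replicate 1 at 10 weeks stood above a next value of 9.78%, from 17353 counts of Ighg2b among 63332 heavy-chain counts.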

How the results depend on the processing

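At 10 and 12 against 4 and 6 weeks and at 12 against 4 weeks, all 10 genes kept their direction and their call in each alternative run. At 8 against 6 weeks the number called was 5 with the edgeR exact test and with DESeq2 and 0 to 5 with each mouse left out in turn. At 6 against 4 weeks DESeq2 called 2. At 10 against 8 weeks the number was 0 for the 8- and 10-week mice alone and 0 to 3 with each mouse left out, the 3 being without replicate 3 at 10 weeks. Replicate numbers are shared between ages but belong to different mice, and the correlation of same-numbered mice ran from -0.504 to 0.509, so the numbers did not pair the samples. With the replicate number as a block, 0 of the 10 were called at 10 against 8 weeks (Ighd 2.60, adjusted p = 0.0551), no gene was called over the whole table at that step, and no other call of the 10 genes changed.

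With a mouse left out, single genes changed sign as follows. At 6 against 4 weeks Ighd ran from -0.29 to 2.04, Ighg2b from -0.19 to 2.83 and Mzb1 from -0.44 to 1.43. At 8 against 6 weeks Ighg2c ran from -1.94 without replicate 2 at 8 weeks to 7.61. At 12 against 10 weeks Ighm ran from -0.38 to 0.33, Ighg1 from -0.62 to 1.09, Ighg2b from -1.87 to 0.0448, Igha from -0.61 to 0.14, Igkc from -0.54 to 0.36, Jchain from -0.66 to 0.27, Mzb1 from -0.62 to 0.26 and Prdm1 from -0.33 to 0.21. The cause was not tested.

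The difference in the Ighm share turned to 0.118 points with shares of counts and to 5.15 without the 2 mice under 200 heavy-chain counts, where that of Ighg1 was -0.0637. With each mouse left out it ran from -6.36 to 1.99 for Ighm, 2.51 to 4.13 for Ighd, 0.0632 to 0.455 for Ighg1, -1.57 to 2.42 for Ighg2b, 3.64 to 7.61 for Ighg2c and -9.01 to -3.23 for Igha. Against the B-cell genes, Jchain changed by -0.21 with a prior count of 0.5 and by -0.19 with 4 B-cell genes, and ran from -0.39 to 0.39 with a mouse left out. Mzb1 changed by -0.94 (adjusted p = 0.013) with a prior count of 0.5, by -1.01 (adjusted p = 0.026) with 4 B-cell genes, and by -0.79 to -0.57 with a mouse left out. Jchain against Ighm changed by 0.17 without the libraries with intestinal RNA and by -0.35 to 0.12 with a mouse left out, and against 8 weeks by 0.00979 and by -0.16 to 0.0309. Jchain against Igkc ran from -0.49 to -0.26 and kappa against lambda from 0.0855 to 0.64. These p-values are from exact permutation. The call of Prdm1 against the B-cell genes was kept in each alternative. Since the B-cell genes were chosen with earlier results known, this cannot decide whether Prdm1 rose in proportion.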
